A study of Mus musculus with 6 samples.

Results

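The STAT and IRF transcription factors are the nuclear end of interferon signaling, and 9 of their genes were followed in the liver of L1-Tg and WT mice. They are Stat2, Stat3, Irf1, Irf2, Irf3, Irf5, Irf7, Irf8 and Irf9, chosen by name and found through the RefSeq accession of their probes among 37074 genes on the array. All 9 were well above background on all 6 arrays. L1-Tg mice were male and hemizygous for a human NPC1L1 transgene under the APOE promoter (line B6;D2-Tg(APOE-NPC1L1)20Lqyu/J), which places the cholesterol transporter in hepatocytes, and the WT mice were their male littermates. Both genotypes shared a C57BL/6J background and a control-fat diet (CFD), the standard diet CE-2. The labels give no age, the methods describe young males, and the transgenic mice come from 1 line. Each group held 3 arrays, and each array held the pooled liver RNA of 2 or 3 mice, so the spread given below is between pools and not between mice. No factor passed the adjusted threshold. Irf7 had by far the largest difference, with a mean log2 signal 1.66 higher in L1-Tg mice, and the other 8 lay between -0.35 and 0.30.

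Interferons bind receptors at the cell surface and activate JAK kinases, which phosphorylate STAT proteins. Type I interferons lead to ISGF3, a complex in which STAT2 and another STAT protein are held to DNA by IRF9, and ISGF3 switches on antiviral genes. Interferon-gamma leads to a STAT dimer that switches on Irf1, whose product in turn activates antigen presentation genes. IRF3 is present in resting cells and is phosphorylated after foreign nucleic acid or lipopolysaccharide is sensed, and IRF7, itself an interferon-induced product, amplifies the response. IRF2 occupies the same DNA element as IRF1 and usually represses it. STAT3 carries the interleukin-6 signal of the hepatic acute phase, and IRF5 and IRF8 are found mainly in macrophages, dendritic cells and B cells. On this basis Stat2, Irf1, Irf7 and Irf9 are called interferon-induced below, Stat3, Irf2 and Irf3 constitutive, and Irf5 and Irf8 myeloid-restricted.

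The promoters of 5 factors are shown because they hold the letters of elements that proteins of this family bind, or, for Irf7, because its difference was the largest. Each is the RefSeq window of GRCm38.p6 from 250 bases before to 50 bases after the annotated start, on the strand of the gene. Capitals mark the letters GAAANNGAAA, the core of the element bound by ISGF3 and IRF proteins, or TTCNNNGAA, the palindrome bound by STAT dimers, each searched on both strands. The windows are chr7:141266375-141266674 (minus strand) for Irf7, chr10:128270248-128270547 (plus) for Stat2, chr8:46739495-46739794 (plus) for Irf2, chr11:53769764-53770063 (plus) for Irf1 and chr8:120736108-120736407 (plus) for Irf8.
Irf7: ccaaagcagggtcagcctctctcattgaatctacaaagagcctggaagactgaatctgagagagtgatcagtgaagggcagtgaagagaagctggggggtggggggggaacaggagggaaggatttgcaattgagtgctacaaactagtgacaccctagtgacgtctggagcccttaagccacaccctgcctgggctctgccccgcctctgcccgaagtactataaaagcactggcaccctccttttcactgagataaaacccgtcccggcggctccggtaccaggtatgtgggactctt
Stat2: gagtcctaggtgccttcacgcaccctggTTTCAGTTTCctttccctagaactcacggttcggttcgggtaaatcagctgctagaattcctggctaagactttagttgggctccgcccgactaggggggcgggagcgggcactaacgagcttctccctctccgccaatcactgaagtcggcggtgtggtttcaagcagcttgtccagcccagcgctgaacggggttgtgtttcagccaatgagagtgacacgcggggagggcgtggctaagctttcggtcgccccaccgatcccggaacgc
Irf2: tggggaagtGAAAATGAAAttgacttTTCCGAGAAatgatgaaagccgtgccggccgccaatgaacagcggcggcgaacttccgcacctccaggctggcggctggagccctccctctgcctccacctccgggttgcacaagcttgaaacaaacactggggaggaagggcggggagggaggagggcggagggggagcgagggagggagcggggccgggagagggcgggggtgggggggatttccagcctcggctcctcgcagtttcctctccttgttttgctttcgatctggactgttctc
Irf1: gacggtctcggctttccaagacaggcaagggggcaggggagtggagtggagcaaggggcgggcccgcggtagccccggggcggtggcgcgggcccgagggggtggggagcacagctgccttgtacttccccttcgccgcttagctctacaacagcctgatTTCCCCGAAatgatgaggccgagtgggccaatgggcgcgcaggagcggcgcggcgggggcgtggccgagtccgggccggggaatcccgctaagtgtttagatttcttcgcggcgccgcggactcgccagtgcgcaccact
Irf8: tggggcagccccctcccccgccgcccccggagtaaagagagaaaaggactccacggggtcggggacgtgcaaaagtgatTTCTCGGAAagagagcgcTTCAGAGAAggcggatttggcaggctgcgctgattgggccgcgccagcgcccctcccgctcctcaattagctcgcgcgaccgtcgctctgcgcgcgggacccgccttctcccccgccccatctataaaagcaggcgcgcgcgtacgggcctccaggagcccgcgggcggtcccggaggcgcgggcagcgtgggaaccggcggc

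The first motif was present in 3.44% of all 32851 promoter windows and in 2 of the 12 windows of the factors. By gene it was present in 3.99% of all genes with a window and in 2 of the 9 factors. It began 222 bases upstream of the start of Stat2, read on the opposite strand, and 241 bases upstream of the start of Irf2. The second motif was present in 8.30% of all windows and in 3 of the 12 windows of the factors. By gene it was present in 9.55% of all genes with a window and in 3 of the 9 factors. It began 224 bases upstream of Irf2, 90 bases upstream of Irf1, and 171 and 153 bases upstream of the first of the 2 starts listed for Irf8. No match to either motif lay in the windows of Irf7, Irf9, Irf3, Irf5 or Stat3, which says only that these letters are not in these windows. Of the 19 ISGF3 target genes with a window, 11 held the first motif, Rsad2, Isg15, Ifit1 and Trim30a among them, and so did 10 of the 17 genes of the IRF1 and interferon-gamma list, such as Cxcl10 and Gbp7. The share over all genes with a window was 3.99%. Both lists were drawn up as targets of proteins that bind this element, so their higher share is not a result about these livers. A match is a stretch of letters and not a measured binding site.

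All values that follow are the log2 of the processed signal minus the 75th percentile of its array. They are on 1 scale for a probe and were not compared between probes. A single slide carried the 6 arrays, with WT pools in its row 1 and L1-Tg pools in its row 2, and row and genotype therefore cannot be told apart. The arrays were alike in brightness, with a 75th percentile of 296.8 to 377.8 and 53.1% to 59.2% of probes well above background. The probe for mouse Npc1l1 does not read the human transgene and so does not check the genotype. It was well above background on 3 of 6 arrays, and its mean was -4.18 in L1-Tg and -3.66 in WT mice. All 10 hepatocyte markers were tested, among them Apoa1, Apob and Hnf4a, and their summed linear signal, in units of the 75th percentile, was 5280 to 6420 in L1-Tg and 5880 to 6550 in WT pools. Over the 22355 genes tested the median difference was -0.03, and limma called 29 genes, or 0.13%, at an adjusted p under 0.05.

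None of the 9 factors was among these 29, and 1 of 9 had an unadjusted p under 0.05 with a higher mean in L1-Tg mice, against 4.54% of all genes. Non-overlapping groups were found for 1 factor that was higher in L1-Tg mice, where 7.28% of all genes did so, and for 1 that was lower, where 8.63% did. On the difference index of the methods, which divides the difference of the linear means by the sum of the SDs, 3 factors were above 0.7 and 2 below -0.7. Of all genes, 8.67% were above and 21.6% below. With 9 genes these shares cannot be set apart from the background.

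**Figure D1:**
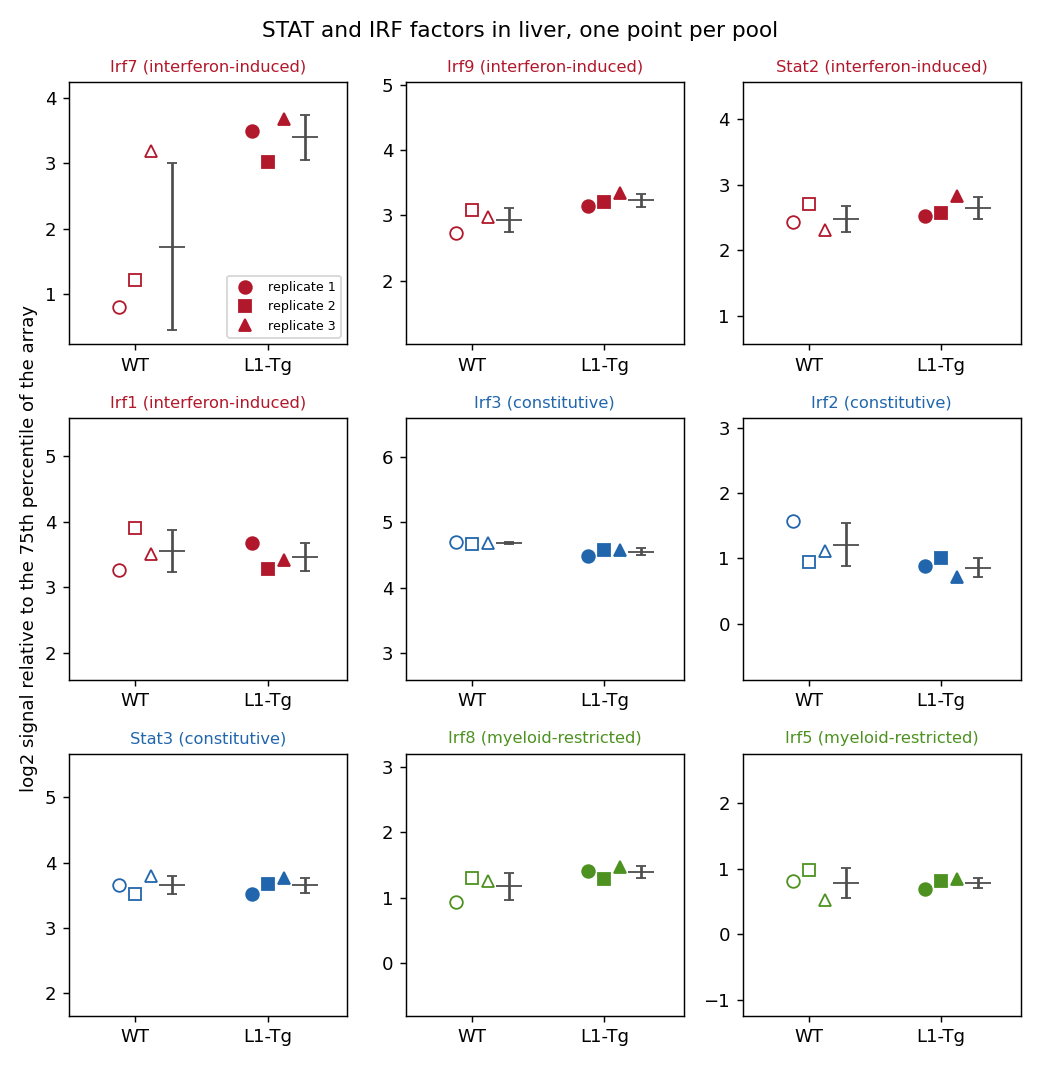
Log2 signal of each factor relative to the 75th percentile of its array (vertical axis, the same span in each panel) in the 3 WT pools (open symbols) and the 3 L1-Tg pools (filled symbols), with the mean and SD beside them. In the Irf7 panel WT replicate 3 lies at 3.19 among the L1-Tg pools, and in the Irf9 and Irf3 panels the groups do not overlap but lie close.

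Irf7 encodes the amplifying factor of the type I interferon response. Its log2 signal was 3.50, 3.02 and 3.68 in L1-Tg replicates 1, 2 and 3 and 0.80, 1.22 and 3.19 in WT replicates 1, 2 and 3. The L1-Tg pools were all high, WT replicates 1 and 2 were low, and WT replicate 3 was above L1-Tg replicate 2. On the linear scale the processed signals were 4278, 2400 and 4309 in L1-Tg and 549, 729 and 3094 in WT pools. The means were 3.40 ± 0.34 (SD, n = 3 pools) and 1.73 ± 1.28, a difference of 1.66 (standard error 0.61, 3.17-fold, 95% interval 1.14 to 8.81, limma unadjusted p = 0.0324, adjusted p = 0.537). The WT pools spanned 2.39 on the log2 scale, and only 1.21% of all genes tested had a wider WT range.

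The value of Irf7 turned on WT replicate 3. Without that array the difference was 2.39 (standard error 0.24, 5.25-fold, limma unadjusted p = 0.000118, adjusted p = 0.0585), which is still not past the adjusted threshold. Leaving out WT replicate 1 gave 1.20 and WT replicate 2 gave 1.41, with a limma unadjusted p of 0.1 and 0.0972. Leaving out L1-Tg replicates 1, 2 and 3 gave 1.61, 1.86 and 1.52, with a limma unadjusted p of 0.0794, 0.0469 and 0.0877. The smallest p thus came from removing the WT pool closest to the L1-Tg pools. Arrays in the same column of the slide carry the same replicate number, and within columns 1, 2 and 3 L1-Tg exceeded WT by 2.70, 1.80 and 0.49. The difference was smallest in the column that held WT replicate 3. Columns pair the pools by slide position only. The common direction depends on that pairing, since WT replicate 3 (3.19) was above L1-Tg replicate 2 (3.02).

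WT replicate 3 also stood high for macrophage and Kupffer cell genes, the phagocytes resident in liver sinusoids. Of 16 markers 15 were tested, and WT replicate 3 was the highest WT pool for 15 of 15, against 30.1% of all genes tested, by a median of 0.75 over the mean of the other WT pools. It lay within or above the L1-Tg values for 14 of 15, which was also the case for 74.5% of all genes. WT replicate 1 was the lowest WT pool for all 15, against 28.5% of all genes. The summed linear signal of the list, in units of the 75th percentile, was 195 to 231 in L1-Tg and 120 to 223 in WT pools. All 15 had a higher mean in L1-Tg mice, with a median difference of 0.36, or 0.64 without WT replicate 3. With all arrays only 1 had an unadjusted p under 0.05, where 4.54% of all genes were higher with such a p. Without WT replicate 3, the pool that lay high for them, 13 had one, where 5.93% of all genes were higher with such a p. Without WT replicate 1 the mean was higher for 13 of 15 and the median was 0.19. The gene with all arrays was Mpeg1, which encodes the pore-forming perforin-2 of phagocytes, at 4.13, 3.86 and 4.48 in L1-Tg and 2.47, 3.07 and 3.67 in WT pools. Cd5l, a secreted protein of Kupffer cells, differed by 0.63 and C1qb, a chain of complement C1q, by 0.49, and for both the groups overlapped. The part of these cells in the Irf7 value was not tested, and in whole liver more cells of a type and more RNA per cell cannot be told apart.

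Irf9 encodes the DNA-binding part of ISGF3. The log2 signal was 3.15, 3.20 and 3.34 in L1-Tg and 2.73, 3.09 and 2.98 in WT pools. Every L1-Tg pool was above every WT pool, with a gap of 0.06 between the closest. The difference was 0.30 (standard error 0.12, 1.23-fold, 95% interval 1.0 to 1.52, limma unadjusted p = 0.0503, adjusted p = 0.560), and the index was 1.08. It stayed between 0.20 and 0.38 with any 1 array left out and was 0.32 without WT replicate 3. Within slide columns it was 0.43, 0.11 and 0.37.

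Stat2 encodes the STAT partner particular to type I and type III interferon signaling. In L1-Tg pools the log2 signal was 2.52, 2.56 and 2.82, and it was 2.43, 2.70 and 2.31 in WT pools. The groups overlapped, since WT replicate 2 was above 2 of the L1-Tg pools. The difference was 0.16 (standard error 0.14, 95% interval of the fold 0.878 to 1.42, limma adjusted p = 0.728). A change of more than 1.42-fold upward therefore lay outside the interval.

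Irf1 encodes the activator that responds to interferon-gamma. Its log2 signal was 3.68, 3.28 and 3.42 in L1-Tg and 3.27, 3.90 and 3.51 in WT pools. The highest and the lowest of the 6 values were both WT pools, and the groups overlapped. The difference was -0.10 (standard error 0.19, 95% interval of the fold 0.678 to 1.28, limma adjusted p = 0.872), and its sign turned with array median scaling (0.01) and without WT replicate 2 (0.07). A further Irf1 probe was well above background on 0 of 6 arrays and was not used.

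Among the constitutive factors, Irf3 encodes the kinase-activated trigger of interferon-beta transcription. Signals on the log2 scale were 4.49, 4.58 and 4.58 in L1-Tg and 4.69, 4.67 and 4.68 in WT pools. Every L1-Tg pool was below every WT pool, and the WT pools spanned only 0.02, a narrower range than in 99.7% of the genes tested. The mean was lower by 8.73% in L1-Tg mice, a log2 difference of -0.13 (standard error 0.08, 95% interval of the fold 0.795 to 1.05, limma unadjusted p = 0.160, adjusted p = 0.647). The index of -2.27 was the largest in size among the 9 factors and rests on that narrow WT spread. With array median scaling the difference was -0.02 and the groups overlapped.

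Irf2 encodes the repressor that competes with IRF1. The pools gave log2 signals of 0.88, 1.00 and 0.71 in L1-Tg and 1.58, 0.94 and 1.12 in WT pools. WT replicate 1 was the highest, and WT replicate 2 lay below L1-Tg replicate 2, so the groups overlapped. The difference was -0.35 (standard error 0.18, 95% interval of the fold 0.579 to 1.07, limma unadjusted p = 0.102, adjusted p = 0.612), and -0.17 without WT replicate 1.

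Stat3, the acute-phase factor, was read by 10 spots of 1 probe. Its log2 signal was 3.52, 3.67 and 3.76 in L1-Tg and 3.65, 3.52 and 3.80 in WT pools. The groups overlapped over most of their range. The difference was -0.01 (standard error 0.12, 95% interval of the fold 0.818 to 1.21, limma adjusted p = 0.986), and a further Stat3 probe gave 0.04.

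Of the myeloid-restricted pair, Irf8 directs the development of monocytes and dendritic cells. The log2 signal was 1.41, 1.29 and 1.46 in L1-Tg and 0.93, 1.30 and 1.26 in WT pools. WT replicate 2 was above L1-Tg replicate 2 by 0.02, and WT replicate 1 was the lowest. The difference was 0.22 (standard error 0.13, 95% interval of the fold 0.938 to 1.44, limma unadjusted p = 0.137, adjusted p = 0.633), with an index of 0.772. WT replicate 3 was not the highest WT pool for Irf8, whereas it was for each macrophage marker tested.

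Irf5 encodes a factor that promotes inflammatory cytokine genes in macrophages. Its log2 signal was 0.69, 0.81 and 0.84 in L1-Tg and 0.82, 0.98 and 0.53 in WT pools, and WT replicate 3 was the lowest of the 6. The L1-Tg pools lay within the range of the WT pools. The difference was 0.01 (standard error 0.14, 95% interval of the fold 0.799 to 1.26, limma adjusted p = 0.993), and -0.12 without WT replicate 3.

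**Figure D2:**
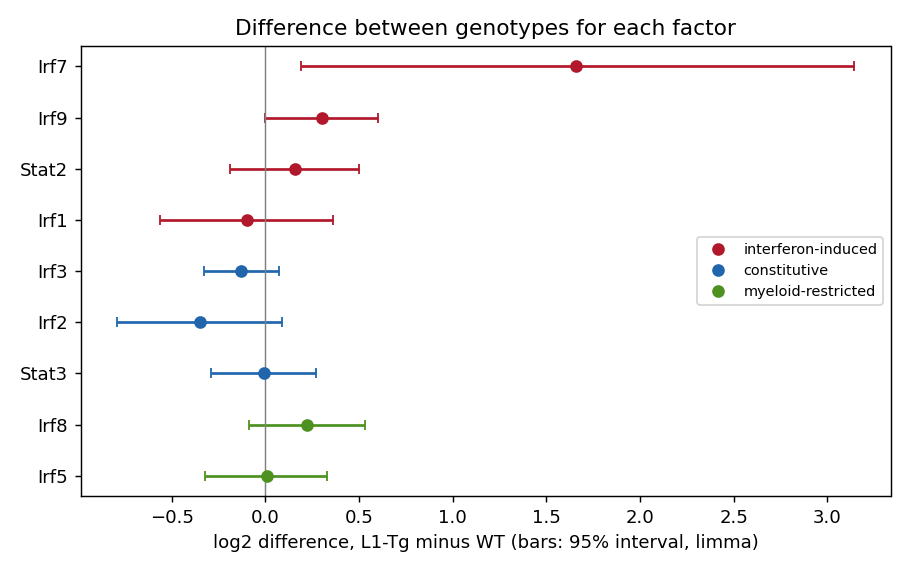
Log2 difference between L1-Tg and WT mice for each of the 9 factors (horizontal axis), with bars for the 95% interval of limma, colored by the kind of factor. The interval of Irf7 runs from 0.19 to 3.14 and is the only one that lies above 0 throughout, the others reach 0 or cross it.

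The induced and the constitutive factors were then set side by side. Of the 4 induced factors 3 had a higher mean in L1-Tg mice, with differences from -0.10 to 1.66 and a median of 0.23. Of the 3 constitutive factors 0 did, with differences from -0.35 to -0.01 and a median of -0.13, although Stat3 turned to between 0.02 and 0.10 with quantile normalization, array median scaling, no scaling or the authors' normalized intensities. The medians were 0.36 apart, or 0.29 with Irf7 left out. When the same quantity was taken in each pool relative to the mean of all pools, it was 0.26, 0.10 and 0.30 in L1-Tg and -0.37, 0.17 and -0.14 in WT pools, a spread of 0.21 (SD) within groups. WT replicate 2 lay above L1-Tg replicate 2, so the groups overlapped. No test was made of this quantity, because the factors were sorted by hand and are too few.

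**Figure D3:**
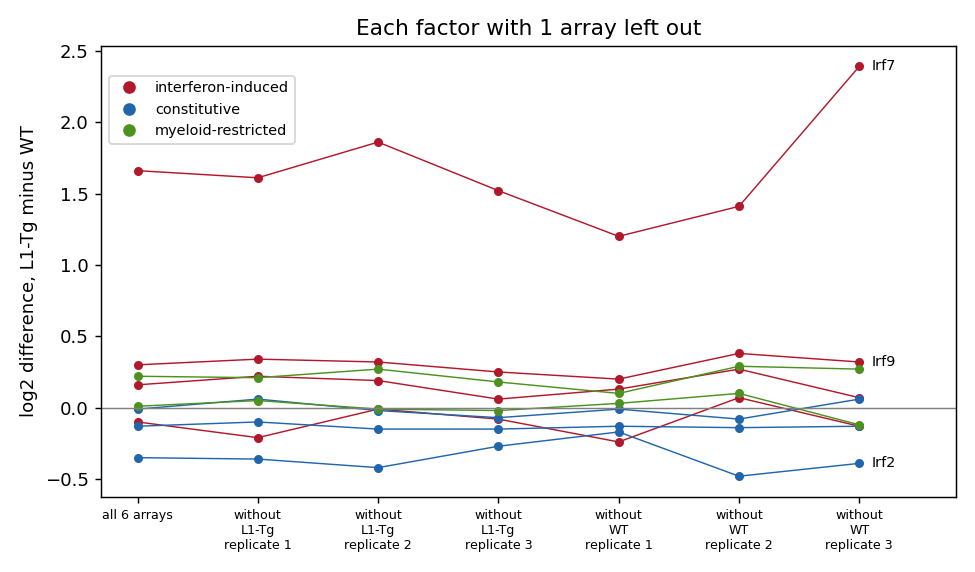
Log2 difference between L1-Tg and WT mice for each factor (vertical axis) with all 6 arrays and with each array left out in turn (horizontal axis), colored by the kind of factor. Irf7 moves between 1.20 and 2.39, and the other 8 factors stay between -0.48 and 0.38.

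Of the 7 other STAT and IRF genes on the array, 6 were tested, all with a higher mean in L1-Tg mice and a median difference of 0.09, but only 3 of 6 were higher after normexp and 2 of 6 without WT replicate 1. The number with an unadjusted p under 0.05 in limma was 0, and after adjustment it was also 0. The smallest p belonged to Stat5a, a mediator of growth hormone signaling in liver, at 0.30, 0.38 and 0.52 in L1-Tg and 0.09, 0.44 and 0.27 in WT pools (difference 0.13, limma adjusted p = 0.730).

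Upstream of the factors, 11 of 12 receptor and kinase genes were tested, 5 higher and 6 lower, with a median difference of -0.04 that turned to between 0.00 and 0.07 under the same 4 alternatives. Of these, 2, both lower, had an unadjusted p under 0.05, where 4.32% of all genes were lower with such a p, and 0 passed the adjusted threshold. Il6ra, the interleukin-6 receptor that feeds STAT3, was at 4.70, 4.72 and 4.89 in L1-Tg and 5.22, 4.96 and 5.18 in WT pools (difference -0.35, limma adjusted p = 0.499). Jak1, the kinase shared by interferon and interleukin-6 receptors, was at 3.48, 3.49 and 3.55 against 3.70, 3.74 and 3.70 (difference -0.21, limma adjusted p = 0.549). The count of 2 was 0 without scaling and 0 or 1 with any 1 array left out. With array median scaling it was again 2, but both genes were then higher in L1-Tg mice and neither lower call was left. In the main fit each L1-Tg pool was below each WT pool for 3 genes, Il6ra, Jak1 and Ifnar1 (difference -0.13), as it was for 8.63% of all genes. Each was above for 2, Ifngr1 (difference 0.24) and Ifngr2, as for 7.28% of all genes. With array median scaling 0 genes of the list were lower without overlap and 3 were higher. Without scaling both counts were 0. Ifngr2, a chain of the interferon-gamma receptor, differed by 0.26 (limma adjusted p = 0.578).

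Of 13 adaptors and kinases that activate IRF3, IRF5 and IRF7, 12 were tested, 8 higher and 4 lower, with a median difference of 0.19. The median was 0.09 without WT replicate 2 and 0.29 with array median scaling. The unadjusted p was under 0.05 for 3 higher genes, against 4.54% of all genes, and the adjusted p for 0. The groups did not overlap for 5 higher genes, against 7.28% of all genes. Traf3, the adaptor that brings the IRF kinases to their receptors, was at 2.05, 1.74 and 2.02 in L1-Tg and 1.31, 1.35 and 1.43 in WT pools (difference 0.57, standard error 0.11, limma adjusted p = 0.301). Irak4, the first kinase downstream of MyD88, was at -2.0, -2.19 and -1.90 against -2.56, -2.56 and -2.51 (difference 0.51, limma adjusted p = 0.309). For both, WT replicate 3 lay with the other WT pools, unlike for Irf7. Irak1, the next kinase in that chain, differed by 0.32 (limma adjusted p = 0.530).

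Of 22 inhibitors and cofactors 21 were tested, 13 higher and 8 lower, with a median difference of 0.02. The tally was 9 higher and 12 lower without WT replicate 2, with a median of -0.02, and 10 higher and 11 lower without L1-Tg replicate 1, and the median was 0.12 with array median scaling. The unadjusted p was under 0.05 for 3 genes, all higher, against 4.54% of all genes, and the adjusted p for 0. Without WT replicate 2 the unadjusted p was under 0.05 for 4, of which 2 were higher. Usp18, an interferon-induced protease that removes ISG15 and blocks the type I receptor, was at 3.79, 3.57 and 4.25 in L1-Tg and 2.01, 2.49 and 2.70 in WT pools (difference 1.47, 2.77-fold, standard error 0.24, limma adjusted p = 0.199). Nmi, a partner of STAT proteins, differed by 0.46 (limma adjusted p = 0.373), and Ifi35, which binds NMI, by 0.40 (limma adjusted p = 0.498). For these 3 genes the groups did not overlap, where 7.28% of all genes were higher without overlap.

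Downstream, the ISGF3 targets had higher means in L1-Tg mice throughout. Of 28 genes 26 were tested, 26 of 26 were higher, 25 had an unadjusted p under 0.05 against 4.54% of all genes, and the groups did not overlap for 25 against 7.28%. The number past the adjusted threshold was 0, with a smallest adjusted p of 0.156. The median difference was 1.34, where that of all genes was -0.03. Trim30a, an interferon-induced regulator of inflammatory signaling, was at 0.07, -0.16 and 0.27 in L1-Tg and -1.53, -1.35 and -0.93 in WT pools (difference 1.33, 2.51-fold, standard error 0.19, limma adjusted p = 0.156). Rsad2, which encodes the antiviral enzyme viperin, was at 2.01, 2.52 and 2.31 against -0.21, 0.47 and 0.86 (difference 1.90, 3.74-fold, standard error 0.29, limma adjusted p = 0.181). Oasl1, an OAS-like protein known to limit translation of Irf7 mRNA, was at 4.54, 4.60 and 5.05 against 3.08, 3.32 and 3.68 (difference 1.37, 2.58-fold, limma adjusted p = 0.181).

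WT replicate 3 was the highest WT pool for 19 of these 26 targets, against 30.1% of all genes tested. Its median excess over the mean of the other WT pools was 0.61. It reached the L1-Tg values for 0 of 26, against 74.5% of all genes. For Irf7 it did so by passing L1-Tg replicate 2 (3.19 against 3.02). The contrast is one of degree, since for Zbp1 it was at 2.94, close to the lowest L1-Tg pool at 3.12. The summed linear signal of the targets, in units of the 75th percentile, was 489 to 786 in L1-Tg and 183 to 322 in WT pools. Without WT replicate 3 the median difference was 1.53. In limma 24 targets then had an unadjusted p under 0.05, where 5.93% of all genes were higher with such a p. The adjusted threshold was passed by 2, Ifi44 and Oas1a, among 36 of all 22547 genes tested. WT replicate 3 stood 2.87 and 2.37 above the mean of the other WT pools for these 2 genes, so leaving it out narrowed their WT spread. These genes were picked out after their values were seen. The ISGF3 genes themselves, Stat2 and Irf9, differed by 0.16 and 0.30.

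**Figure D4:**
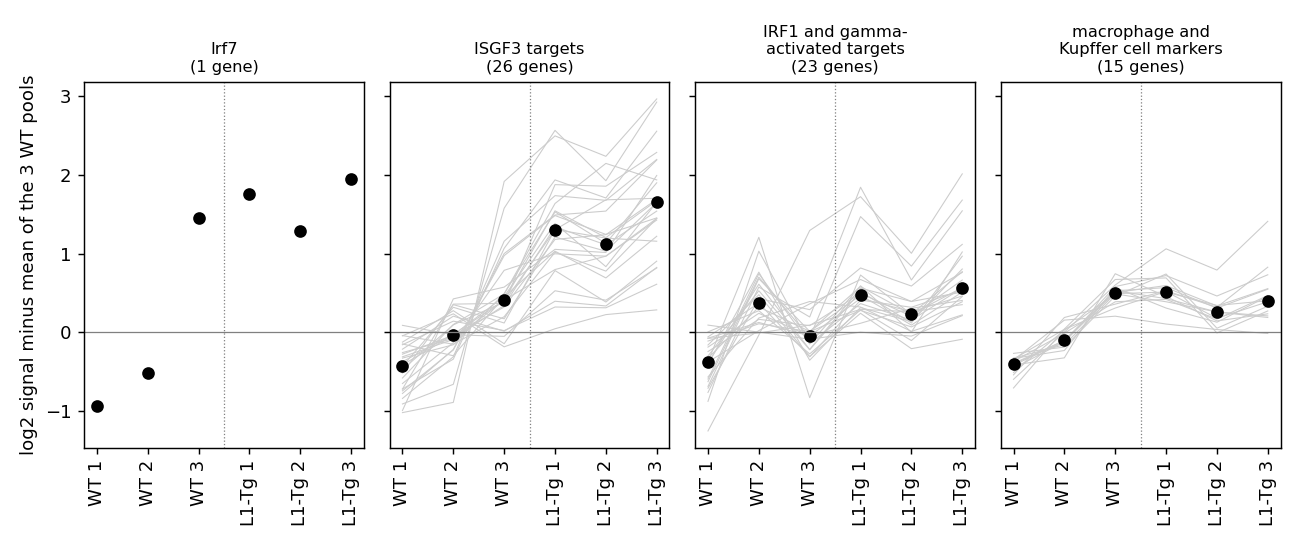
Log2 signal minus the mean of the 3 WT pools (vertical axis) for each pool (horizontal axis) of Irf7, the 26 ISGF3 targets, the 23 IRF1 and gamma-activated targets and the 15 macrophage and Kupffer cell markers. Gray lines are genes and black points their median. WT replicate 3 lies among the L1-Tg pools for Irf7 and the macrophage markers and below them for the ISGF3 targets.

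All 23 genes of the IRF1 and interferon-gamma list were tested, 22 higher and 1 lower, with a median difference of 0.42, or 0.69 without WT replicate 2. The unadjusted p was under 0.05 for 9 higher genes, against 4.54% of all genes, and the adjusted p for 0. The groups did not overlap for 7 higher genes, against 7.28% of all genes. The count of 9 moved to 3, 8 and 1 without L1-Tg replicates 1, 2 and 3 and to 4, 16 and 7 without WT replicates 1, 2 and 3. Gbp6, a guanylate-binding protein, was at 1.66, 1.03 and 1.87 in L1-Tg and -0.44, 0.89 and 0.12 in WT pools (difference 1.33, limma adjusted p = 0.457). Cxcl10, a chemokine that draws T cells, was at 2.98, 1.80 and 2.68 against 0.37, 1.71 and 1.33 (difference 1.35, limma adjusted p = 0.495). Tapbp, a chaperone of peptide loading, differed by 0.34 (limma adjusted p = 0.479). For Gbp6 and Cxcl10, as for Irf1 itself, WT replicate 2 was the highest WT pool.

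All 22 STAT3 targets of liver were tested, 15 higher and 7 lower, with a median difference of 0.08. Of these, 4 higher genes had an unadjusted p under 0.05, against 4.54% of all genes. Without L1-Tg replicate 2 the tally was 11 higher and 11 lower with a median of -0.01, and with quantile normalization the median was 0.22. Lcn2, the iron-scavenging lipocalin of the acute phase, was at 3.67, 3.56 and 3.12 in L1-Tg and 0.94, 2.08 and 1.96 in WT pools (difference 1.79, 3.45-fold, standard error 0.33, limma adjusted p = 0.264). Orm3, an orosomucoid, differed by 1.39 (limma adjusted p = 0.481) and Bcl3, a nuclear regulator of NF-kB, by 0.37 (limma adjusted p = 0.559). The number past the adjusted threshold was 0.

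Of the other cell type markers, 6 of 8 dendritic cell genes were tested, 3 higher and 3 lower, with a median of 0.00. The 9 lymphocyte genes tested had a median difference of 0.37, which was 0.14 after normexp, 0.18 without WT replicate 1 and 0.60 without WT replicate 2. Of these, 1 lower gene, Cd3e, had an unadjusted p under 0.05 (difference -0.30, limma adjusted p = 0.556), where 4.32% of all genes were lower with such a p. The 6 neutrophil genes tested had a median of 0.71, which was 0.17 after normexp, 0.38 without L1-Tg replicate 2, 0.39 without WT replicate 1 and 0.54 over the 4 genes above background on all arrays. Their summed linear signal, in units of the 75th percentile, was 19.8 to 25.0 in L1-Tg and 20.7 to 67.1 in WT pools. The summed signal was 250 to 274 and 278 to 308 for the dendritic cell genes and 89.8 to 108 and 101 to 235 for the lymphocyte genes, in L1-Tg and WT pools respectively. Each of these sums rests mostly on its brightest gene and is no measure of the cell type. Those genes were Elane (difference -0.71), Siglech (-0.18) and Cd4 (-0.71), all lower in L1-Tg mice. By gene, 5 of 6 neutrophil and 6 of 9 lymphocyte genes were higher. Of the 10 hepatocyte genes 1 was higher and 9 were lower, with a median of -0.15. Apoa1 (-0.49) and Pck1 (-0.46) had an unadjusted p under 0.05, where 4.32% of all genes were lower with such a p. That count of 2 was 0 with quantile normalization, with array median scaling and without L1-Tg replicate 1 or L1-Tg replicate 3.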

How the data were processed

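Liver RNA of 3 WT and 3 L1-Tg pools was labeled with Cy3 and hybridized to 1-color Agilent arrays of 62976 spots. The authors processed the scans with Agilent Feature Extraction (version 10.10.1.1). The deposited signal is an intensity from which the background of the array was subtracted, with no scaling across arrays. The deposited matrix holds the same intensities times 1 factor per array and served as an alternative. Control spots were left out and non-uniform spots were treated as missing. The log2 signal minus the 75th percentile of the array was used, a gene was represented by its brightest probe, and 22355 genes whose probe was well above background throughout 1 group or both entered the fit in limma (version 3.58.1, R version 4.3.3; two-sided, Benjamini-Hochberg over all genes, threshold 0.05). Of 28685 probes with a RefSeq name 27235 matched a current symbol. The difference index and its threshold of 0.7 follow the study's methods, on all 37073 genes with an index.

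The members and lists were chosen with earlier results of these data known. Named genes are all 9 factors and, for each other list, genes past the adjusted threshold and the 3 with the smallest p, of which the text names part. The genes closest in pattern are the 5 with the highest Pearson's r; those of Irf7, the genes named for a promoter match and the named hepatocyte genes were chosen after values were seen. Alternatives were quantile normalization, array median scaling, no scaling, normexp (offset 50, on the median signals of spot and background), the deposited matrix, other probe filters, the mean of all probes, a replicate block and leaving out each array. The scripts were tested on simulated data. The labels give pools but no litter or day for a replicate number, and p-values measure the spread between pools. Promoter windows are from RefSeq (GRCm38.p6), with 1 or more for each of the 9 factors, and precision is limited by having 3 arrays a group.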

Additional observations from a re-analysis of the deposited data

How the results depend on the processing

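The number of factors past the adjusted threshold in limma was 0 under every alternative run. At an unadjusted p under 0.05 it was 1 with all arrays, where 1980 of all 22355 genes tested had such a p. That second count was 2 with quantile normalization, array median scaling, the authors' normalized intensities, the filter on all arrays and the mean of all probes, and 3 with normexp, which added Irf9 and Irf3. It ranged from 0 to 2 with 1 array left out, and was 0 without L1-Tg replicate 1, L1-Tg replicate 3 or WT replicate 1. The groups did not overlap for 2 factors, for 1 without scaling, and for 5 without L1-Tg replicate 2 or WT replicate 2. Over all genes the share without overlap was 15.9% with all arrays, 8.35% without scaling, and 27.4% and 26.8% without those 2 arrays, and it lay between 21.4% and 32.0% with any 1 array left out, where groups of 2 and 3 separate more often. The difference index passed 5 factors, where 8.67% of all genes were above 0.7 and 21.6% below -0.7. It passed 2 with a threshold of 1, 1 with a further 2-fold criterion, 2 without scaling, and 3 without L1-Tg replicate 1, L1-Tg replicate 3 or WT replicate 1. The p and index counts under alternatives stand here without a share of all genes and are no result about the factors.

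Array median scaling moved the median of all genes by 0.11, and Irf9 was then 0.41 and Stat2 0.27. Stat3 (main value -0.01) changed sign to 0.02 with quantile normalization, 0.10 with array median scaling, 0.04 without scaling and with the authors' normalized intensities, and 0.01 with the mean of all probes, and lay between -0.08 and 0.06 with 1 array left out. Irf1 turned to 0.01 with array median scaling and lay between -0.24 and 0.07, and Irf5 between -0.12 and 0.10, with 1 array left out. The median of the receptors and kinases, -0.04, turned to 0.00 with quantile normalization, 0.07 with array median scaling, 0.02 without scaling and 0.01 with the authors' normalized intensities, and lay between -0.05 and 0.04 with 1 array left out. The difference between induced and constitutive factors kept its sign under each of these. Array median scaling, no scaling and the authors' normalized intensities shift all genes of an array alike. They therefore could not change this difference, which was 0.36 in each. It was 0.32 with quantile normalization, 0.43 with normexp and 0.29 to 0.46 with 1 array left out. With 1 to 3 bases between the GAAA letters the motif still matched 2 of the 9 factors, where 9.91% of all genes and 8.61% of all windows held it. The cause of these shifts was not tested.

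The replicate numbers, which equal the slide columns, were tried as a replicate block. Same-numbered pools did not deviate together (r of -0.16, 0.11 and 0.02), so the block was not the design used. It left 0 factors past the adjusted threshold and 1 at an unadjusted p under 0.05 in limma, which was Irf7, and the count over all genes went from 29 to 11.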

Other observations

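The genes whose pattern over the 6 arrays was closest to that of each profile are given as a description, since pools share slide and scan. Among 13330 tested genes with a symbol, 157 had a Pearson's r above 0.95 with Irf7. The closest were Axl, a receptor of apoptotic cell bridging proteins (r = 0.998), Ifi207, a member of an interferon-inducible family, Gucy2c, a guanylate cyclase, Cd5l of Kupffer cells and Ms4a6d (r = 0.992). Ms4a6d was at -1.40, -1.47 and -1.29 in L1-Tg and -2.56, -2.24 and -1.47 in WT pools. WT replicate 3 lay with the L1-Tg pools as for Irf7, which follows from choosing the gene by that pattern. Axl was at 1.51, 1.44 and 1.56 against 0.88, 0.95 and 1.48. For the mean of the 4 induced factors the closest were Themis2 (r = 0.998), Plcg2, Dock11, Clec4g and Evi2a. That mean follows Irf7 most, since values were not scaled and Irf7 had the widest range, and it is no shared pattern. Irf7 had an r of -0.10 with Irf1, 0.13 with Stat2 and 0.73 with Irf9. For Irf8 the closest were Anxa9 (r = 0.995), Cnot11, Ms4a4b, Gbp7 and Tlr3. Gbp7, of the IRF1 list, was at 0.39, 0.16 and 0.69 in L1-Tg and -1.14, 0.00 and -0.14 in WT pools. Tlr3, a receptor of double-stranded RNA, was at -3.53, -3.85 and -3.51 against -5.44, -4.03 and -4.13. None of these 15 genes passed the adjusted threshold in limma, and their adjusted p was 0.499 to 0.677.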
